A study of Mus musculus with 617 samples.

Results

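The genes T, Mixl1, Eomes, Evx1, Mesp1, Gsc, Lhx1, Foxa2 and Frzb mark the primitive streak of the gastrulating mouse embryo and the mesendoderm that leaves it. They were taken by Ensembl ID and symbol from each of the 4 deposited expression tables, and all 9 were found among the 43628 genes of a table. Their levels are described in 617 single cells sequenced by SMART-seq2, a full-length RNA-seq protocol for single cells, in 13 groups. ES cells of 1 female and 1 male line, from a cross of CAST/EiJ males with C57BL/6J females, were grown in 2i with LIF (60 female and 51 male cells) or in serum with LIF (68 and 52 cells). Epi cells were made from both lines with Activin A and FGF2 (79 female and 63 male cells), and a further female Epi culture was kept in these factors for 7 passages (41 cells). Motor neuron cultures were made from both lines through embryoid bodies with retinoic acid and the Smoothened agonist SAG, a protocol that also yields interneurons (39 female and 35 male cells). Embryo cells were labelled E3.5 inner cell mass (ICM) and E4.5 epiblast (23 cells each, of the same cross, with no sex given) and E5.5 epiblast (20 female and 63 male cells, with both parents C57BL/6J). Each sex is 1 line, so line and sex cannot be told apart, and cells of a culture are not replicates of a condition.

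At gastrulation, WNT3, BMP4 and NODAL signals act on the posterior epiblast, which forms the streak. T and Eomes are T-box transcription factors needed for mesoderm and for endoderm with early mesoderm, respectively. Mixl1 and Evx1 are homeobox genes of the streak, and Mesp1 is a basic helix-loop-helix factor of nascent mesoderm, known for its part in cardiac progenitors. Gsc, Lhx1 and Foxa2 are transcription factors of the anterior streak and its organiser, and Foxa2 is also a forkhead factor of endoderm and of the floor plate. Frzb is a secreted WNT antagonist. Epiblast stem cells in Activin A and FGF2 are known to transcribe streak genes in part of their cells.

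In the mm10 build, T lies on chromosome 17 from 8434423 to 8442496 (plus strand), Eomes on chromosome 9 from 118478212 to 118486132 (plus strand) and Mixl1 on chromosome 1 from 180693043 to 180697034 (minus strand). Mesp1 lies on chromosome 7 from 79792241 to 79793788, Gsc on chromosome 12 from 104471209 to 104473330, and Lhx1 on chromosome 11 from 84518284 to 84525535, each on the minus strand. Foxa2 and Frzb are both on the minus strand of chromosome 2, from 148042877 to 148046969 and from 80411970 to 80447625. Evx1 lies on chromosome 6 from 52313498 to 52318378 (plus strand), where the antisense gene Evx1os (52308389 to 52314832, minus strand) overlaps it. Strand use in the counting is not given in the sources used here, so reads of the overlap cannot be told apart, and Evx1os was at 16.2 FPKM in male Epi, where Evx1 was at 10.9.

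The 250 bases upstream of the T start are shown because T was the member detected in every cell in 2i. That medium holds a GSK3 inhibitor that activates the WNT pathway, whose DNA-binding factors are the TCF and LEF proteins. The sequence is RefSeq's for GRCm38.p6 (the mm10 build), chr17:8434173-8434422 on the plus strand, read 5′ to 3′, and capitals mark a match to 1 of the TCF/LEF words, which are CTTTGAA and CTTTGAT as well as CTTTGTT and also CTTTGTA, searched on both strands.

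T upstream: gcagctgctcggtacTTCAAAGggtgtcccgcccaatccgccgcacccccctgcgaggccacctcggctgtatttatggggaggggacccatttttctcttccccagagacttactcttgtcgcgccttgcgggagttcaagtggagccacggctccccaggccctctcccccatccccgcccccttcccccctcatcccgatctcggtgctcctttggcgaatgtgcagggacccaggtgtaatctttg

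The match is TTCAAAG, the other strand of CTTTGAA, and its first base is at -235 from the start. These words overlap one another in their first bases, and 14.8% of 32851 upstream windows of this length held at least 1 of them. The match is a description of these letters and not a bound site. RefSeq windows were at hand for 8 of the 9 members, all but Mixl1, and upstream of the start only T and Mesp1 held a TCF/LEF word, with those of Mesp1 at -73 and -31, which the GENCODE annotation places inside the first exon of Mesp1. No upstream window of a member held the FOXH1 word AATNCACA or the T-box word TCACACCT.

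Values are FPKM, sequenced fragments per kilobase of transcript scaled by the number of fragments of the cell, so that levels can be compared between genes. A gene was counted as detected in a cell at 1 FPKM or more, and group levels are means over cells. The read depth of the cells is unknown, so intervals on shares are exact Clopper-Pearson 95% intervals that cover counting error only. The median number of detected genes per cell lay between 8122 and 10839.5 in the 13 groups. In the 8 cell line cultures, tests used limma on log2(mean FPKM + 1) per culture, with 2 cultures per state.

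Markers of other cells or states are given here for 4 of the labels, and those of E3.5 cells further below. The first female Epi culture kept Zfp42, a gene of naive pluripotency that primed cells switch off, at 72.5 FPKM, while male Epi was at 0.0687 and the 7-passage culture at 0.117. The E5.5 cells held visceral endoderm genes beside Pou5f1, which was detected in every cell: Apoa1 was detected in all 83 cells and Ttr in all but 1 male cell. In E4.5 cells Cdx2, a trophoblast gene, was detected in 86.96% of cells beside Pou5f1 and Nanog in all of them. In the motor neuron cultures the neuronal tubulin Tubb3 was at 501.4 FPKM in the female and 1621 in the male culture, and the endoderm factor Gata4 at 41.7 and 54.3. Of the 4 Y-linked genes summed as a check of sex, at least 92.1% of male cells of a culture or of E5.5 had 1 FPKM or more and at most 5.88% of female cells did.

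**Figure D1:**
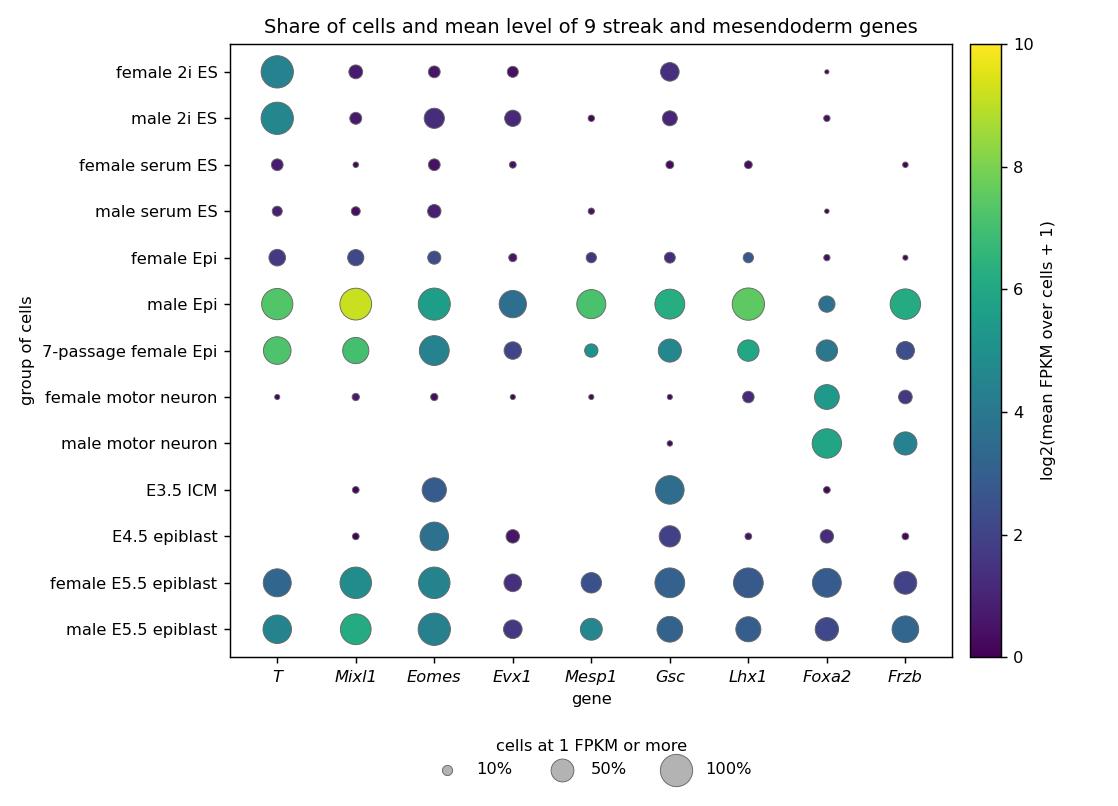
Share of cells at 1 FPKM or more (dot area) and log2(mean FPKM over cells + 1) (colour) of the 9 genes (columns) in the 13 groups (rows). T is detected in all cells of both 2i cultures, the male Epi row is filled for 8 genes at 71.4% to 100% of cells, and Foxa2 and Frzb are the genes filled in the motor neuron rows.

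T stood alone among the members in ES cells. In 2i it was detected in all 60 female and all 51 male cells (intervals from 94.04% and 93.02% to 100%), at 20.2 and 23.9 FPKM on average. The lowest, median and highest female cell were at 1.75, 17.97 and 50.9 FPKM, and the male cells at 3.10, 21.7 and 57.4. In serum T was detected in 9 of 68 female and 5 of 52 male cells (13.2% and 9.62%), at 0.728 and 0.816 FPKM. Most serum cells, 55 female and 46 male, were listed at 0.

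Among all 8 cultures, T was 3.70 lower in serum than in 2i on the log2(FPKM + 1) scale (SE 1.58), and limma with Benjamini-Hochberg adjustment did not call it (adjusted p = 0.518). That fit shares 1 estimate of spread over all 4 states, and with only the 4 ES cultures fitted the same change had an SE of 0.204 and an adjusted p of 0.0228. T was also called without the female or without the male Epi culture, and in 4 of 18 alternative settings in all. No other member was called in this contrast, where 0.0193% of 15504 genes were called in the main fit (1549 genes at an unadjusted p under 0.05). With only the 4 ES cultures fitted, 3.02% of 13547 genes were called. The shares were 0.310% and 0.329% without the female or without the male Epi culture, and 0.738% with the 7-passage culture. Of the other 8 members, 6 reached the filter of 1 FPKM, as a mean over the 8 cultures, only through male Epi. A missing call therefore does not show that these were unchanged.

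The other 8 members were low in ES cells of both media. Gsc was at 1.63 and 1.08 FPKM in female and male 2i cells, against 0.187 and a listing at 0 in serum, and it was detected in 33.3% and 21.6% of 2i cells. Eomes was detected in 39.2% of male and 13.3% of female 2i cells, and Evx1 in 25.5% and 11.7%. Lhx1 was listed at 0 in every cell in 2i. A cell in 2i held a median of 2 detected members and never fewer than 1, while 43 of 68 female and 35 of 52 male serum cells held none.

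In a list of 10 signal targets, the WNT targets Sp5, Axin2 and Cdx1 had higher means in 2i than in serum, as T did. Sp5 was at 36.4 and 44.5 FPKM in 2i and at 0.00362 and 0.483 in serum (female, then male), Axin2 at 16.7 and 16.3 against 0.560 and 1.59, and Cdx1 at 20.03 and 30.96 against 0.806 and 1.06. Lef1, also a WNT target, changed by 0.16 on the log2(FPKM + 1) scale, and the FGF targets Dusp6 and Spry4 were 4.23 and 2.11 higher in serum on that scale. None of the 10 was called in the fit of 8 cultures, and their median change was 0.01 against 0 over all genes. Among the 30 other streak genes of the list used here, 28 passed the filter and none was called between serum and 2i, with a median change of -0.03 against 0 over all genes.

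**Figure D2:**
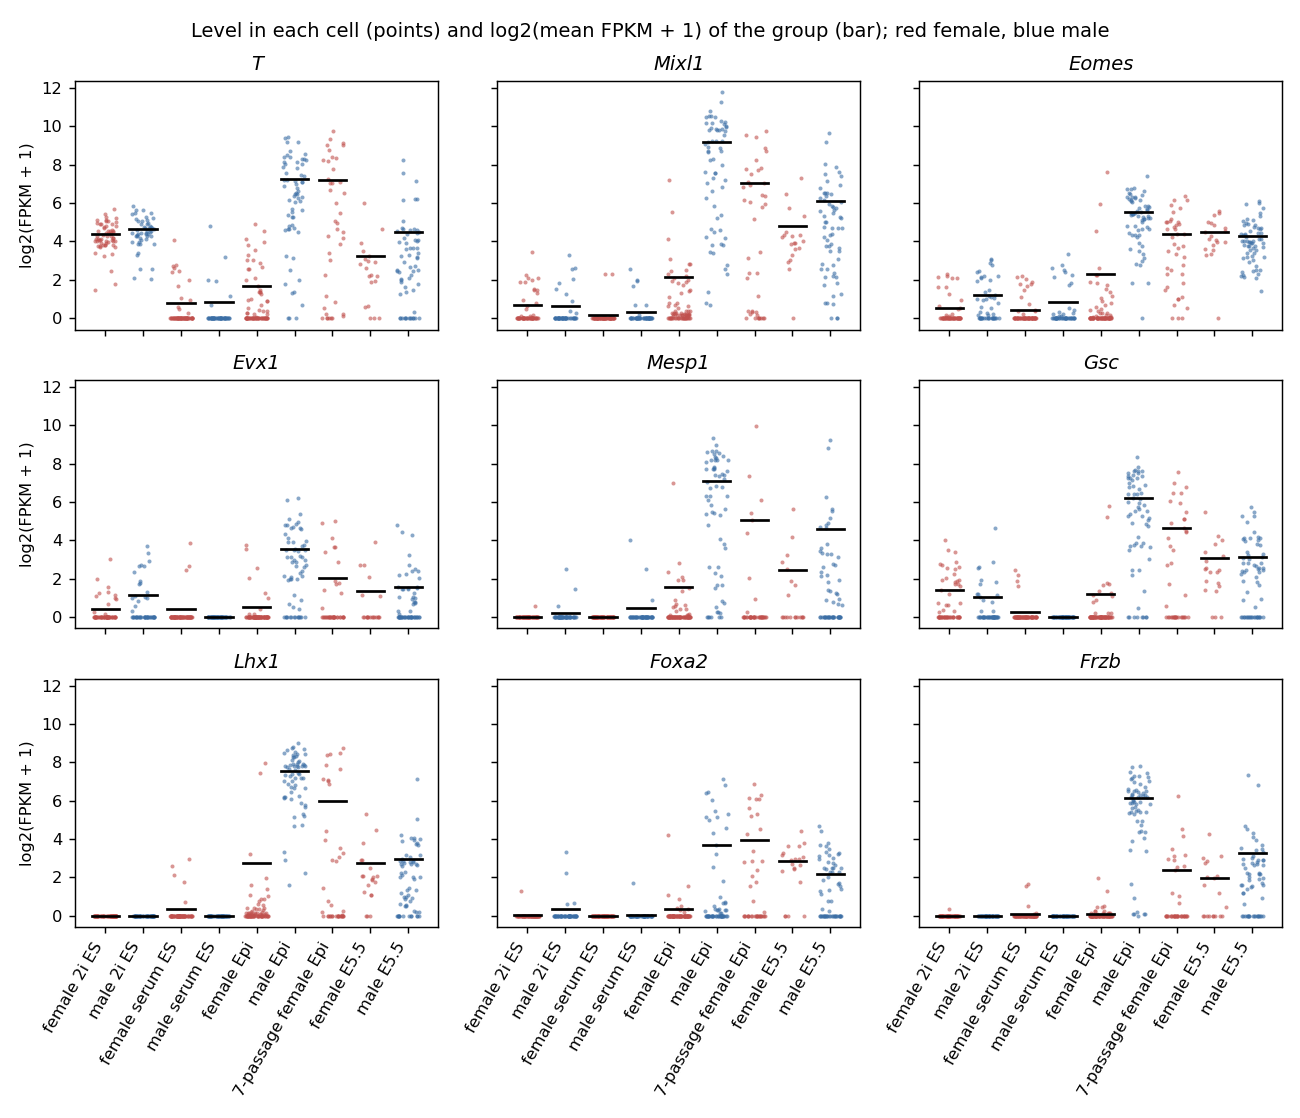
Level of each member in each cell of 9 groups, as log2(FPKM + 1) (vertical axis), with black bars at log2(mean FPKM + 1) of the group; red points are female and blue points male cells. T forms 1 compact cloud in both 2i cultures, and the male and 7-passage female Epi cells reach the highest levels of most genes, with other cells of the same culture at 0.

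Male Epi cells expressed nearly the whole set. Mixl1 had the highest mean, 576 FPKM, and was detected in 61 of 63 cells (96.8%, interval 89% to 99.6%). Its lowest, median and highest cell were at 0.585, 403 and 3506 FPKM. Lhx1 was detected in all 63 cells at 184.9 FPKM, from 2.03 to 513. T was at 153.8 FPKM in 93.7% of cells and Eomes at 45.2 in 98.4%.

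The remaining members of male Epi were less evenly spread. Mesp1 was at 137.7 FPKM in 80.95% of cells, Gsc at 72.9 in 85.7%, Frzb at 68.4 in 88.9% and Evx1 at 10.9 in 71.4%. Foxa2 was detected in 16 of 63 cells (25.4%, interval 15.3% to 37.9%) and at 11.8 FPKM, with a median of 0 and a highest cell at 141.5. A male Epi cell held a median of 8 members, and 56 of 63 cells held at least 7.

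In the 7-passage female culture 8 of the 9 members were detected in a smaller share of cells than in male Epi, and Foxa2 in a larger one. T was at 147.4 FPKM in 73.2% of cells, close to its male mean, and Foxa2 at 14.6 in 43.9%. Mixl1 was at 130 FPKM in 65.9%, Eomes at 20.2 in 85.4%, Lhx1 at 61.3 in 43.9% and Gsc at 23.9 in 51.2%. Mesp1 was at 32.6 FPKM in 7 of 41 cells (17.1%, interval 7.15% to 32.1%), Frzb at 4.14 in 31.7% and Evx1 at 3.09 in 29.3%. The male mean was 16.5-fold higher for Frzb, 4.43-fold for Mixl1 and 4.23-fold for Mesp1, 1.04-fold for T and 0.806-fold for Foxa2. A single cell at 1004.9 FPKM carried most of the 7-passage mean of Mesp1: the other 40 cells were at 8.25, and the male mean was 16.7-fold higher than that, a value computed after seeing the data. These levels come from separately deposited tables, with 1 culture each, so they have no test. A 7-passage cell held a median of 5 members, and 5 of 41 held at least 7.

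The first female Epi culture had low means: T 2.199 FPKM, Mixl1 3.498, Eomes 3.90, Lhx1 5.67, Mesp1 1.93, Gsc 1.32, Evx1 0.428, Foxa2 0.293 and Frzb 0.0860. The male Epi means were 69.9-fold higher for T, 164.5-fold for Mixl1 and 11.6-fold for Eomes. Of its 79 cells 29 held no member, and 2 cells held at least 7.

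These 2 cells had Zfp42 low and several members high. One was at 172.1 FPKM for Lhx1, 61.2 for Eomes, 53.7 for Gsc, 45.02 for Mixl1 and 17.8 for Foxa2, and listed at 0 for Mesp1. The other was at 251.6 for Lhx1, 194 for Eomes, 148.1 for Mixl1, 125.8 for Mesp1 and 203 for Cer1, a secreted antagonist of NODAL and BMP. Their Zfp42 was at 2.31 and 0, their Pou5f1 at 90.9 and 0.501, and their Y-linked sum at 0 and 0.299. The first cell thus had both Zfp42 and Pou5f1 detected, and its 8573 detected genes were the fewest of the culture. They were singled out after their values were seen. In the other 77 cells Zfp42 and Pou5f1 were detected in every cell, at 74.3 and 1144 FPKM, T was at 1.78 and Mixl1 at 1.08, and the other 7 members at 0.0474 to 0.691. The titles of this culture are numbered in a lower run of 34 and a higher run of 45 cells, whose meaning is not given, and both singled-out cells lie in the lower one. Mixl1 was at 6.77 FPKM in the lower and 1.02 in the higher run, Eomes at 8.62 and 0.327, Lhx1 at 12.9 and 0.196, and T at 2.50 and 1.97. The lower-run means include the 2 singled-out cells. The medians of the lower and higher run were 0.121 and 0.174 FPKM for Mixl1, 0 and 0 for Eomes, and 0 and 0.0402 for Lhx1.

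Between Epi and serum ES no member was called, with 6 of 15504 genes or 0.0387% called by limma in all and 1000 genes past an unadjusted threshold of 0.05. Each of the 9 members was higher in mean, by 1.83 to 5.41 on the log2(FPKM + 1) scale, with a median of 3.59 against 0.12 over all genes, and their adjusted p lay between 0.727 and 0.729. By line, Mixl1 went from 0.118 to 3.498 FPKM in the female cultures and from 0.275 to 576 in the male. For 6 members (Eomes, Evx1, Gsc, Lhx1, Mesp1 and Mixl1) the mean over the 8 cultures passed the filter of 1 FPKM only through male Epi.

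Without the first female Epi culture 8 of the 9 were called higher by limma, where 1.43% of 15479 genes were called higher. Mixl1 was 8.92 higher (SE 0.3995, adjusted p = 0.00581), Lhx1 7.37 (SE 0.561, adjusted p = 0.0117), Mesp1 6.88 (adjusted p = 0.0086), T 6.45 (adjusted p = 0.00581) and Gsc 6.08 (adjusted p = 0.0086). Eomes, Foxa2 and Evx1 were 4.87, 3.65 and 3.35 higher (adjusted p = 0.0164, 0.0189 and 0.0388), and Frzb was 6.07 higher and not called (adjusted p = 0.0759). That fit rests on a single Epi culture, the one through which 6 members passed the filter, and it is assumed to vary like the other states. With the 7-passage culture in place of the first, limma called 7 of the 9 higher, where 2.94% of genes were called higher. Evx1 (adjusted p = 0.0533) and Frzb (adjusted p = 0.124) were not called. In this fit too, the same 6 members passed the filter only through the Epi cultures, the group in which they were then tested as higher. Culture and table cannot be told apart there. With the cell of highest Mesp1 left out of the 7-passage culture, Mesp1 was 4.92 higher and no longer called by limma (adjusted p = 0.0584). The other 6 of the 7 were still called.

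Other streak genes were tested in the same fits. Of 30 in the list, 28 passed the filter and none was called with both Epi cultures. Their median change was 1.95 against 0.12 over all genes. Without the first female Epi culture, so with 1 Epi culture, the median change of 29 was 3.02 against 0.09 over all genes. Among the genes higher there were Fgf8 (7.83), Cer1 (7.57), Snai1 (6.12), Tbx6 (5.30), Sp5 (5.14) and Dkk1 (5.05). Fst (4.63), Cdh2 (4.44), Kdr (3.95), Msgn1 (3.02) and Chrd (2.53) were also higher. Snai1 drives the loss of epithelial adhesion, Tbx6 and Msgn1 are paraxial mesoderm factors, Kdr is a VEGF receptor of early vascular mesoderm, and Dkk1, Cer1, Fst and Chrd are secreted inhibitors. Without the first female Epi culture the median change was 2.42 for 11 ligands, 0.94 for 9 receptors and 3.63 for 8 inhibitors. It was 1.68 for 8 visceral endoderm and 5.85 for 5 definitive endoderm genes. With the 7-passage culture in place of the first, 2.94% of 15447 genes were called higher. There 10 of 29 streak genes were called higher (Wnt3, Fgf8, Sp5, Msgn1, Snai1, Cdh2, Dkk1, Fst, Cer1 and Sox17). Of ligands 5 of 11 were called higher (Wnt3, Wnt5a, Wnt5b, Fgf8 and Fgf5) and 1 lower (Gdf3). In that fit none of 9 receptors was called, and 4 of 9 inhibitors were called higher (Cer1, Dkk1, Sfrp1 and Fst). So were 3 of 8 visceral endoderm genes (Gata4, Gata6 and Sox17) and 3 of 5 definitive endoderm genes (Sox17, Cxcr4 and Cer1). Which of these list genes passed the filter only through an Epi culture was not examined.

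Fgf8 was at 361 FPKM in male Epi and 310 in the 7-passage culture, against 12.0 in the first female culture. Wnt3, the streak-inducing ligand, was at 34.5 and 35.7, against 5.48. Tbx6 was at 39.8 FPKM in male Epi and 4.39 in the 7-passage culture, in the same order as Mesp1. Of the 11 visceral endoderm genes, 3 were detected in 50% or more of male Epi cells and 1 in 50% or more of 7-passage cells, with sums of 0 to 756 FPKM (median 53.05) and 0 to 1167 (median 7.40). Gata4 and Sox17, which also mark definitive endoderm, were at 21.9 and 63.5 FPKM in male Epi, while Ttr was listed at 0 in all cells of both cultures, and Apoa1 was at 0.721 in male Epi and at 0 in the 7-passage culture.

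**Figure D3:**
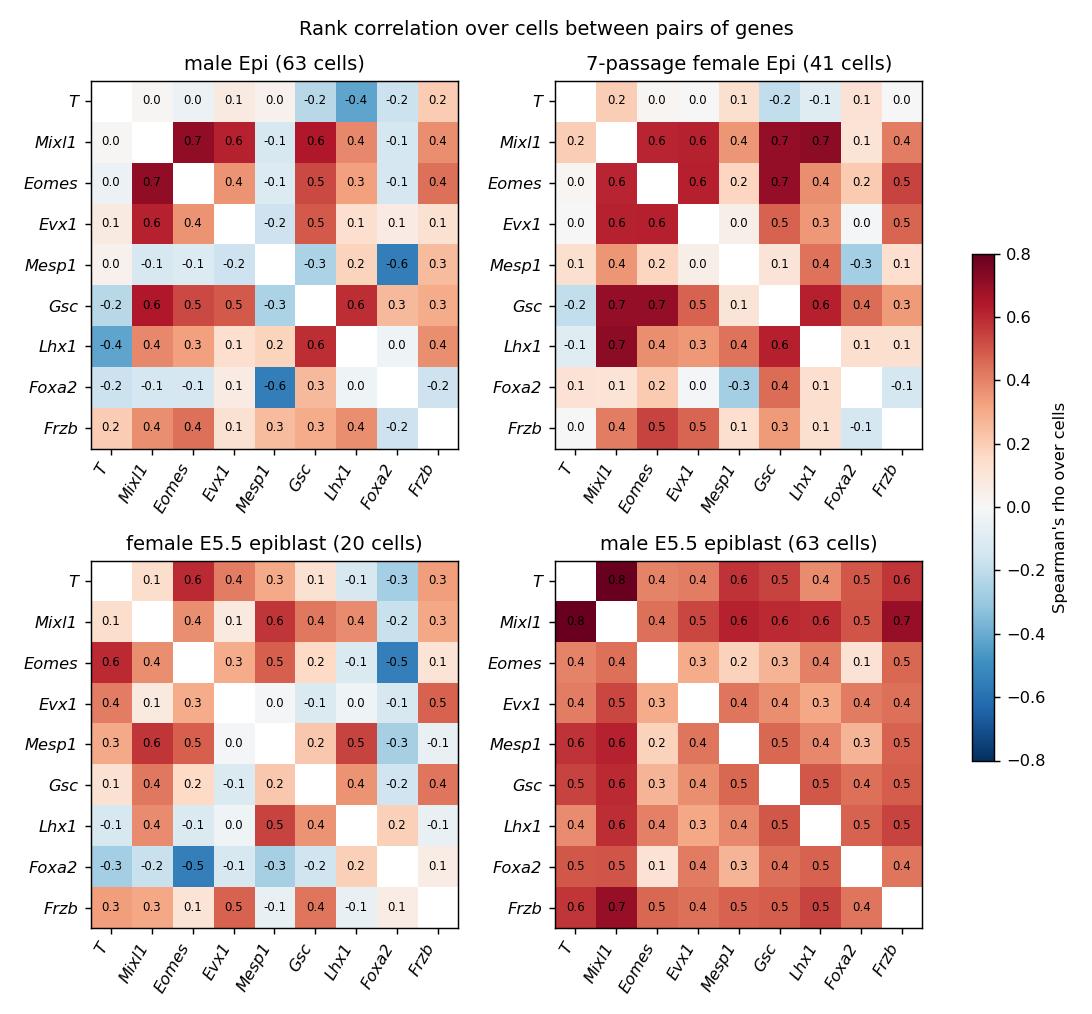
Spearman's rho over cells between each pair of the 9 genes in 4 groups, with the number of cells in each title (blue negative, red positive). In both Epi cultures Mixl1, Eomes, Evx1 and Gsc form a red block and Foxa2 with Mesp1 is the lowest pair, and in male E5.5 cells all 36 pairs are above 0.

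Within the Epi cultures some members varied together over cells. Cells of a culture share depth and culture, so rho is given as a description. Mixl1 went with Eomes (rho 0.71 in 63 male and 0.61 in 41 7-passage cells), with Gsc (0.64 and 0.70) and with Evx1 (0.61 and 0.62), and Gsc with Lhx1 (0.59 and 0.62). By rho T went with none of them: its rho with Mixl1 was 0.01 and 0.19, with Eomes -0.04 and 0.02, and with Lhx1 -0.42 and -0.10. By detection in the 7-passage culture, Eomes was in 29 of 30 cells with T and 6 of 11 without. Mixl1 was in 22 of 30 and 5 of 11 there. In male Epi Eomes was in 58 of 59 and 4 of 4 cells, and Mixl1 in 57 of 59 and 4 of 4. T was lower where Otx2, an anterior epiblast factor, was higher (rho -0.30 and -0.64), while its rho with Pou5f1 was 0.74 in male Epi and -0.17 in the 7-passage culture. Over the 36 pairs the median was 0.13 in male Epi, with 23 above 0, and 0.20 in the 7-passage culture, with 30 above 0.

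Genes most like a member were ranked by the smaller rho of both cultures, among 10004 genes. For Mixl1 they were Six2, Fgf10, Relt, Gsc and Evx1 (smaller rho 0.61 to 0.69), and those named for T were Ly6e, Rtl8c, Tcea3 and Tnfrsf19 (0.53 to 0.58). For Mesp1 they were Inka1, Aplnr, Arl4d, Snai1 and Dpysl5 (0.53 to 0.62), for Lhx1 Gata4, Gsc, Gata6, Hs3st3b1 and Cyp26a1 (0.57 to 0.63), and for Foxa2 Gpx2, Fgf5, Ldha, Arhgef26 and Pick1 (0.41 to 0.50). For Eomes they were Mixl1, Vrtn, Smad1, Gsc and Dact1, for Gsc Mixl1, Cfc1, Lhx1, Six2 and Hes1, for Evx1 Mixl1, Fgf10, Chst15, Msx1 and Relt, and for Frzb Zic2, Ifitm1, Eomes, Nin and Pdgfra.

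Mesp1 was less frequent in Epi cells with Foxa2 (rho -0.55 in male Epi and -0.27 in the 7-passage culture). Of 16 male Epi cells with Foxa2, 7 also had Mesp1 (43.8%), against 44 of 47 cells without Foxa2 (93.6%), at means of 16.53 and 179.005 FPKM. In the 7-passage culture none of 18 cells with Foxa2 and 7 of 23 without it had Mesp1. In E5.5 cells the rho was 0.27 in males, with Mesp1 in 19 of 33 cells with Foxa2 and 10 of 30 without, and -0.26 in females, with 6 of 16 and 2 of 4. The pair was singled out after the values were seen.

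Among endoderm genes, Sox17 and Cer1 lay on the Foxa2 side. Gata4 and Gata6 were among the genes most like Lhx1, whose rho with Foxa2 was -0.04 in male Epi and 0.13 in the 7-passage culture. Sox17, an endoderm factor, was detected in 10 of the 16 male Epi cells with Foxa2 and in 1 of 47 without, at 249.3 and 0.184 FPKM. In the 7-passage culture it was in 5 of 18 and 1 of 23 cells, at 104.8 and 0.138. Cer1 was at 440 against 105.1 FPKM in male Epi and at 275.4 against 31.8 in the 7-passage culture. Tbx6 and Snai1 lay on the other side. Tbx6 was in 5 of 16 against 41 of 47 male cells (7.28 and 50.8 FPKM). In the 7-passage culture it was in 1 of 18 against 7 of 23 cells. Snai1 was at 31.03 against 237.6 FPKM in male Epi. T was alike on both sides, at 138.8 with Foxa2 and 158.9 without it in male Epi, and at 147.96 and 146.9 in the 7-passage culture.

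**Figure D4:**
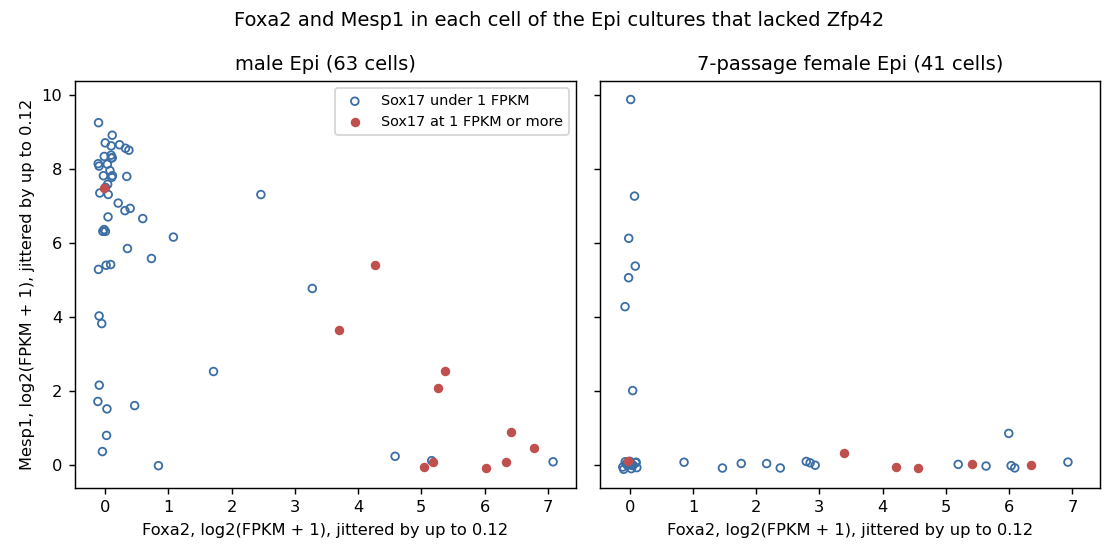
Foxa2 (horizontal axis) and Mesp1 (vertical axis) in each cell of male Epi (left) and the 7-passage female Epi culture (right), both as log2(FPKM + 1); filled red points are cells with Sox17 at 1 FPKM or more. Cells with high values lie along the axes, and 10 of the 11 male and 5 of the 6 7-passage cells with Sox17 have Foxa2.

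Male Epi cell titles are numbered in 2 separate runs, of 31 and 32 cells, whose meaning is not given. Gsc was at 42.3 FPKM in the lower and 102.6 in the higher run, Lhx1 at 136.5 and 231.8, and Foxa2 at 6.83 and 16.6, while the median number of detected genes was 8861 and 9919.5. T, Mixl1, Eomes, Mesp1, Evx1 and Frzb were at 176.4 and 131.8, 494 and 655, 50.97 and 39.5, 149.2 and 126.6, 9.68 and 12.0, and 71.02 and 65.8. The rho of Foxa2 with Mesp1 was near -0.55 in each run, and the part of the numbering in these levels was not tested.

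In E5.5 cells each member had a lower mean than in male Epi, and 7 of the 9 were detected in at least 50% of cells of both sexes, all but Mesp1 (8 of 20 female and 29 of 63 male cells) and Evx1 (6 of 20 and 21 of 63). Eomes was detected in 19 of 20 female and all 63 male cells, at 21.2 and 18.7 FPKM, and Mixl1 in 95% and 90.5%, at 27.2 and 68.4. T was detected in 75% of female cells (interval 50.9% to 91.3%) and 77.8% of male cells (65.5% to 87.3%), at 8.57 and 21.2 FPKM. Its lowest, median and highest cell were at 0, 4.51 and 63.9 FPKM in females and at 0, 6.52 and 299.6 in males.

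The anterior streak genes were low at E5.5, and broad at the threshold of 1 FPKM. Gsc was at 7.30 FPKM in female and 7.75 in male cells (85% and 63.5% of cells). Lhx1 was at 5.81 and 6.82 (85% and 60.3%), and Foxa2 at 6.31 and 3.46 (80% and 52.4%). At 5 FPKM or more the shares were 35% and 41.3% for Gsc, 25% and 39.7% for Lhx1, and 60% and 25.4% for Foxa2. Mesp1 was at 4.53 and 23.3 FPKM, with a highest female cell at 47.9 and a highest male cell at 599, Frzb at 2.90 and 8.66, and Evx1 at 1.53 and 1.98. A female cell held a median of 6.5 members and a male cell of 6, 10 of 20 and 30 of 63 held at least 7, and 8 male cells held all 9. With 1 sample a sex these differences have no test.

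The members varied together over male E5.5 cells. All 36 pairs had a rho above 0, with a median of 0.45, and the highest were T with Mixl1 (0.79) and Mixl1 with Frzb (0.70). Over the 20 female cells 23 of 36 pairs were above 0 with a median of 0.15: T went with Eomes (0.59) and not with Mixl1 (0.14), and Eomes against Foxa2 (-0.55). In the 49 male cells with T, Mixl1 was at 85.1 FPKM against 9.64 in the 14 without, and Mesp1 was detected in 26 against 3 cells, Frzb in 38 against 5, Foxa2 in 30 against 3 and the WNT target Sp5 in 37 against 4. In females Mesp1 was detected in 8 and Evx1 in 6 of the 15 cells with T, and in none of the 5 without.

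The visceral endoderm list also varied over these cells. The sum of its 11 genes ranged from 215 to 9718 FPKM in female cells (median 2314) and from 29.3 to 2752 in male cells (median 552), with 9 and 8 of its genes detected in 50% or more of cells, and none of the 11 was listed at 0 throughout. Apoa1 was at 438 FPKM in male cells with T and 377 in those without, and Ttr at 186.8 and 138.9. Foxa2 and Lhx1 are also known in visceral endoderm, and the genes most like both in the 2 sexes, among 10997, included Ddc, Spink1 and Fth1, and for Foxa2 also Apoa1. For T they were Lzts1, Snai1, Gna14, Dlc1 and Dennd2c, for Mixl1 Sp5, Apln, Mesp1, Car2 and Rbbp7, and for Eomes Hmces, Dlc1, Snai1, Axin2 and Nenf. Over male cells all 9 members had a rho of 0.39 to 0.61 with the visceral endoderm sum. Within the 2 runs of title numbers described next, it lay between 0.05 (Frzb) and 0.67 (Mixl1) in the lower and between 0.15 (Mesp1) and 0.68 (Lhx1) in the higher run, with T at 0.42 and 0.16. The rho of T with that sum was 0.43, with the sum of 7 extraembryonic ectoderm genes 0.27 and with the number of detected genes 0.31, and over female cells -0.39, 0.03 and 0.08. The part of other cells' RNA and of depth in the members' levels was not tested.

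Male E5.5 cells are also numbered in 2 runs, of 28 and 35 cells. T was at 10.5 FPKM in the lower and 29.8 in the higher run, Mixl1 at 32.4 and 97.1, Mesp1 at 1.51 and 40.7 (25% and 62.9% of cells), Frzb at 1.94 and 14.0, and Lhx1 at 2.90 and 9.96. Eomes was at 17.98 and 19.2, Gsc at 7.77 and 7.74, Foxa2 at 2.52 and 4.21 and Evx1 at 1.32 and 2.51. The visceral endoderm sum had a median of 179.07 in the lower and 813 in the higher run. Within each run all 36 pairs of members still had a rho above 0, with medians of 0.38 and 0.45. Whether the runs are embryos, litters or days is not stated, and their part in the levels was not tested.

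Before implantation only 2 members were common. Gsc was at 10.7 FPKM in 18 of 23 E3.5 cells (78.3%) and at 2.75 in 10 of 23 E4.5 cells (43.5%). Eomes was at 6.22 in 13 E3.5 cells (56.5%) and at 12.0 in 18 E4.5 cells (78.3%). T and Mesp1 were listed at 0 in all 23 cells of each stage, which for each stage allows a share of cells up to 14.8%, the upper bound of the exact interval. Mixl1, Lhx1 and Frzb were detected in at most 1 cell of a stage, and Evx1 and Foxa2 in 4 cells each at E4.5 (17.4%).

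Eomes is also a trophoblast factor, and it was found with Cdx2. In E3.5 cells Cdx2 was detected in 11 of 13 with Eomes and 2 of 10 without, at 23.3 and 1.18 FPKM. In E4.5 cells it was in 17 of 18 and 3 of 5, at 61.4 and 2.69, and Elf5, another trophoblast factor, in 15 of 18 and 2 of 5. Pdgfra, a primitive endoderm receptor, was in 7 of 13 E3.5 cells with Eomes and 9 of 10 without, at 3.28 and 10.9 FPKM. It was in 14 of 18 E3.5 cells with Gsc and 2 of 5 without, at like means of 6.55 and 6.74 FPKM. These pairs were singled out after their values were seen.

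In the motor neuron cultures Foxa2 was the highest member. It was at 39.9 FPKM in 23 of 39 female cells (58.97%, interval 42.1% to 74.4%) and at 57.7 in 29 of 35 male cells (82.9%, 66.4% to 93.4%), and listed at 0 in all 68 female serum ES cells. It was 5.58 higher than in serum ES (SE 0.975, log2 scale) and called by limma (adjusted p = 0.00822), higher in both lines, in a contrast where 32.8% of 15504 genes were called. Without the female or without the male serum ES culture the change was 5.55 or 5.61 and no longer called (adjusted p = 0.0567 and 0.0523). Scaling cultures to a common upper quartile turned the calls of all genes from 91.8% higher to 44.7% higher and their median change from 0.71 to -0.27, and Foxa2 was then 4.84 higher (adjusted p = 0.0195).

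Frzb was at 2.11 FPKM in 17.9% of female and at 20.8 in 51.4% of male motor neuron culture cells, and its change of 2.99 was not called (adjusted p = 0.246). Male motor neuron titles are numbered in runs of 20 and 15 cells, with Foxa2 at 72.8 FPKM in the lower and 37.6 in the higher run and Frzb at 27.7 and 11.5. In the female runs, of 22 and 17 cells, Foxa2 was at 40.7 and 38.9 and Frzb at 1.00 and 3.55, and the part of the numbering was not tested. The other 7 members changed by -0.75 to 0.42 and none was called. Their means lay at 0 to 1.28 FPKM in the motor neuron and serum ES cultures. All of them but T passed the filter only through male Epi, outside this contrast. Their spread was estimated with the Epi cultures included, so the missing calls do not show that they were unchanged. Lhx1, which also marks spinal interneurons, was detected in 5 of 39 female cells at 1.28 FPKM on average and listed at 0 in all male cells. T, Mixl1, Eomes, Mesp1 and Evx1 were listed at 0 in all 35 male cells, which allows a share of up to 10.0%, and were in at most 2 female cells.

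The cells with Foxa2 carried endoderm genes. Gata4 was detected in 15 of 23 female cells with Foxa2 and none of 16 without, and in 26 of 29 against 1 of 6 male cells. Sox17 was at 146.02 against 8.24 FPKM in female and 415 against 13.2 in male cells, and Ttr was in 9 against 0 and 24 against 1 cells. Tubb3 was lower with Foxa2, at 48.4 against 1153 FPKM in female and 1088 against 4197 in male cells. Shh, the floor plate signal, was in 2 of 23 against 2 of 16 female and 4 of 29 against 0 of 6 male cells.

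Frzb lay within the same cells. All 7 female and 17 of 18 male cells with Frzb had Foxa2, with a rho between both of 0.36 and 0.63. The genes most like Foxa2 in both cultures, among 10656, were Mob3b, Pdpn, Hs3st1, Lsr and Ctsz (smaller rho 0.73 to 0.79), and those most like Frzb were Kit, Soat1, Gstm2, Galk1 and Txndc12 (0.61 to 0.66). Of the 11 genes of the visceral endoderm list 8 passed the filter. Of these, 7 were called higher than in serum ES (Gata6, Gata4, Sox17, Sox7, Pdgfra, Ttr and Dab2), with a median change of 4.86 against 0.71 over all genes. Apoa1, also of that list, was detected in at most 1 cell of each run of title numbers of these cultures. Of the neuron list 4 of 5 genes tested were called higher (Tubb3, Map2, Dcx and Elavl3). Of 28 other streak genes 5 were called higher (Cdh2, Pdgfra, Dkk1, Fst and Sox17) and 4 lower (Lef1, Lefty2, Otx2 and Tdgf1), so 9 of the 28 were called, a share near the 32.8% of all genes.

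**Figure D5:**
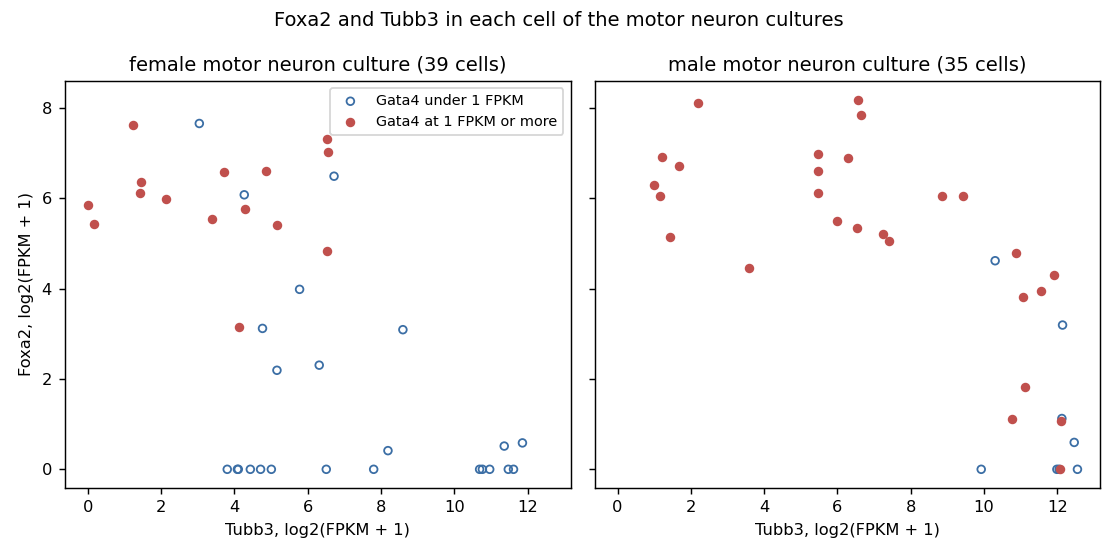
Tubb3 (horizontal axis) and Foxa2 (vertical axis) in each cell of the female (left) and male (right) motor neuron cultures, as log2(FPKM + 1); filled red points are cells with Gata4 at 1 FPKM or more. All 15 female and 26 of the 27 male cells with Gata4 have Foxa2, and cells of the highest Tubb3 are at or near 0 for Foxa2.

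The order of groups differed between members. T ran from male Epi (153.8 FPKM) and the 7-passage culture (147.4) to male 2i (23.9), male E5.5 (21.2), female 2i (20.2) and female E5.5 (8.57), and every other group was at 2.199 or below. Neighbouring ranks have no test, as the order crosses tables whose scaling to one another is not given. The SD over cells was 169.4 and 215.03 FPKM in the first pair, a spread of cells and not the error of a mean. Mixl1, Lhx1, Mesp1, Gsc and Evx1 had male Epi first and the 7-passage culture second, and Eomes had male Epi first and female E5.5 second, at 45.2 and 21.2 FPKM. Foxa2 was highest in the motor neuron cultures, and Frzb had male Epi first and the male motor neuron culture second, at 68.4 and 20.8 FPKM.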

How the data were processed

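Single-cell SMART-seq2 libraries of 617 cells were analysed from 4 tables of FPKM. The authors deposited FPKM per gene and cell, made with STAR 2.4.1, Cufflinks and Cuffnorm 2.2.1 on mm10, per the submitters' processing notes. Scaling between tables is not given in the sources used here, so tests were kept within the table of 8 cell line cultures except where stated. In 356 values the exponent's minus sign was written as a low line and was read as a minus (largest value 9.76e-05). FPKM keep no read depth, so precision is given by the number of cells, and the intervals cover counting error only.

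Groups follow the cell type and sex labels. FPKM were averaged over the cells of a culture, and log2(mean + 1) was fitted with limma 3.58.1 (R 4.3.3, trend) for genes whose mean over the 8 cultures reached 1 FPKM. Called genes had a log2 change of 1 or more in size and passed an adjusted p (Benjamini-Hochberg) of 0.05. Both cultures of a state differ in line and sex, and p-values measure the spread between these cultures only. On simulated data, 200 of 15504 genes were changed between Epi and serum ES, with 1 spread per gene in all states. None was recovered at a log2 change of 1.5, 61.5% at 3 and 83.0% at 5. The members spread mainly between the 2 Epi cultures, with Mixl1 2.01 higher in the female and 8.82 in the male line. These shares therefore do not carry over to the members. All states were made from the same 2 lines, which pairs the cultures: the female minus male deviations of 2 states had a Pearson r of 0.06 to 0.16 over genes. Genes most like a member were the 5 with the highest smaller Spearman's rho of 2 cultures, among protein-coding genes detected in at least 20% of cells of both, and 1 gene of those for T is not reported here. No 2 cells held the same values (highest r 0.938), and doublets were not called. Where calls of a list are given, the called genes are named, with other genes where a result turns on them. Alternatives changed the pseudocount, filter, scaling, summary over cells, cells kept, block, cultures, detection threshold and runs of title numbers. The 9 genes and the gene lists were chosen with earlier results of these data known.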

Additional observations from a re-analysis of the deposited data

How the results depend on the processing

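The share of tested genes called between serum and 2i ES was 0.0193% (3 genes). It was 0 with a pseudocount of 0.1, 0.0797% without a filter, 1.44% with log2 values averaged over cells, 0.0450% with upper-quartile scaling, 3.02% with only the 4 cultures compared, 0.738% with the 7-passage Epi culture and 0 to 0.329% with a culture left out. Between Epi and serum ES it was 0.0387% (6 genes), with 0.00706% for only the 4 cultures compared, 5.49% with the 7-passage culture and 0 to 2.36% with a culture left out (2.36% without female Epi, 0.497% without male Epi). Between motor neuron and serum ES it was 32.8%, with 20.54% for cells rescaled to a common sum, 21.2% for upper-quartile scaling and 10.7% to 35.8% with a culture left out (10.7% without female and 12.1% without male serum ES). Of the called genes 69.05% were higher with a common sum and 75.04% with averaged log2 values, against 91.8% here. A replicate block for line gave shares of 0, 0.0129% and 34.8%, and it changed no call of a member (Foxa2 in motor neuron cultures, adjusted p = 0.00817).

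Of 456 recomputed changes of single members, 435 stayed on the same side of the calling threshold, 2 lost the call and 19 gained one. None changed sign where it was called in either fit. Changes of sign without a call count among the 435. Eomes, for example, ranged from -0.579 to 0.140 between serum and 2i ES, and Mixl1 from -0.256 to 0.428 between motor neuron and serum ES. Of the shares of cells with a member, 14 rose with a threshold of 0.1 FPKM and 52 fell with 5 FPKM by more than their interval, and leaving out 2 cells with few genes moved none. In the runs of title numbers, 14 of 72 shares moved in the higher and 16 of 72 in the lower run, and 48 pairs of genes moved with co-detection at 5 FPKM in place of rho. Leaving out the cell of highest Mesp1 from the 7-passage culture, chosen after seeing the data, took its Mesp1 mean from 32.6 to 8.25 FPKM. The cause of these differences was not tested.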

Other observations

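Blastocyst cell titles begin with a number whose meaning is not given. Gsc was detected in at least 1 cell of each of the 4 leading numbers at E3.5, at means of 7.69 to 14.9 FPKM over 4 to 7 cells, and of 5 of the 7 leading numbers at E4.5, at 0 to 9.07 FPKM over 2 to 7 cells. Eomes was detected in at least 1 cell of every number, at 1.78 to 9.29 FPKM at E3.5 and 1.67 to 23.7 at E4.5. Lhx1os, a noncoding gene beside Lhx1, was at 115.3 FPKM in male Epi, 20.8 in the 7-passage culture and 1.13 in the first female Epi culture. Cdx2, which is expressed in posterior streak and trophoblast, was at 6.82 and 4.12 FPKM in female and male 2i ES cells and at 0.371 or below in the 3 Epi cultures.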
